A study of Homo sapiens with 6 samples.

Results

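The genes described here are 35 of the 23354 in the deposited count table. Their list and role groups were chosen with earlier results of these data known. The 35 are the stress factor ATF4, genes known as its targets, the tRNA exporter XPOT and 12 cytosolic tRNA synthetases. Each was found in the table under its listed symbol, and each passed the low-count filter. RNA was sequenced from LNCaP cells, an established human prostate cancer line that depends on androgens. In 3 libraries the cells had received dihydrotestosterone (DHT), a potent natural androgen, at 1 nM for 48 h, and in 3 they had received the same DHT with white button mushroom (WBM) extract at 3 µL/mL. Cells of both groups therefore carried androgen, no library without DHT was analysed here, and the labels name no vehicle for the cells without extract. The labels do not say whether replicates were separate cultures, so p-values rest only on how far these libraries spread, which may be technical variation.

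ATF4 is a transcription factor of the integrated stress response. When amino acids run short, unfolded proteins collect in the endoplasmic reticulum, heme is lacking or viral RNA is sensed, a kinase phosphorylates the initiation factor eIF2, most translation slows, and the ATF4 message is translated more. ATF4 then binds, often with a C/EBP partner, to genes for amino acid synthesis and uptake, for tRNA charging and for stress effectors such as DDIT3 (CHOP). Because ATF4 protein is set largely by translation, the level of its message and the activity of the pathway can part, and neither translation nor protein was measured.

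Among these genes several stress effectors were higher with the extract, and most called biosynthetic genes were lower. The secreted cytokine gene GDF15 rose 3.01-fold, and DDIT4, CEBPB and CHAC1 rose 1.63-fold, 1.51-fold and 1.45-fold, while ATF4 itself was 1.29-fold lower. Of 5 serine and one-carbon enzymes 4 fell and 0 rose, with the mitochondrial folate enzyme gene MTHFD2 1.55-fold lower. Of 12 tRNA synthetases 4 fell and 1 rose while 7 missed the test threshold, and no synthetase reached a 1.5-fold difference. Over the whole list 10 genes were higher and 14 lower by edgeR's quasi-likelihood test at a Benjamini-Hochberg adjusted p under 0.05. In the same test 58.2% of the 13466 tested genes were called, 29.2% higher and 29% lower, so the number called here, 24 of 35, is near that background. With library totals in place of TMM scaling (trimmed mean of M-values), the split of the list was 13 higher and 12 lower, and over all tested genes the calls shifted likewise, to 34.7% higher and 23.8% lower (58.5% in all).

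Medians differed between the role groups. The 14 stress factors and effectors had a median log2 fold change (DHT+WBM over DHT) of 0.19, the 5 serine and one-carbon enzymes -0.25, and the 12 synthetases -0.077, beside a median of 0.0029 over all tested genes. Changes of at least 1.5-fold past the test were made by GDF15, DDIT4 and CEBPB upward and by MTHFD2 downward. Over all tested genes 8.08% rose and 6.46% fell by that much. Libraries of the groups did not overlap for 25 of the 35 genes, and for 62.2% of all tested genes.

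**Figure D1:**
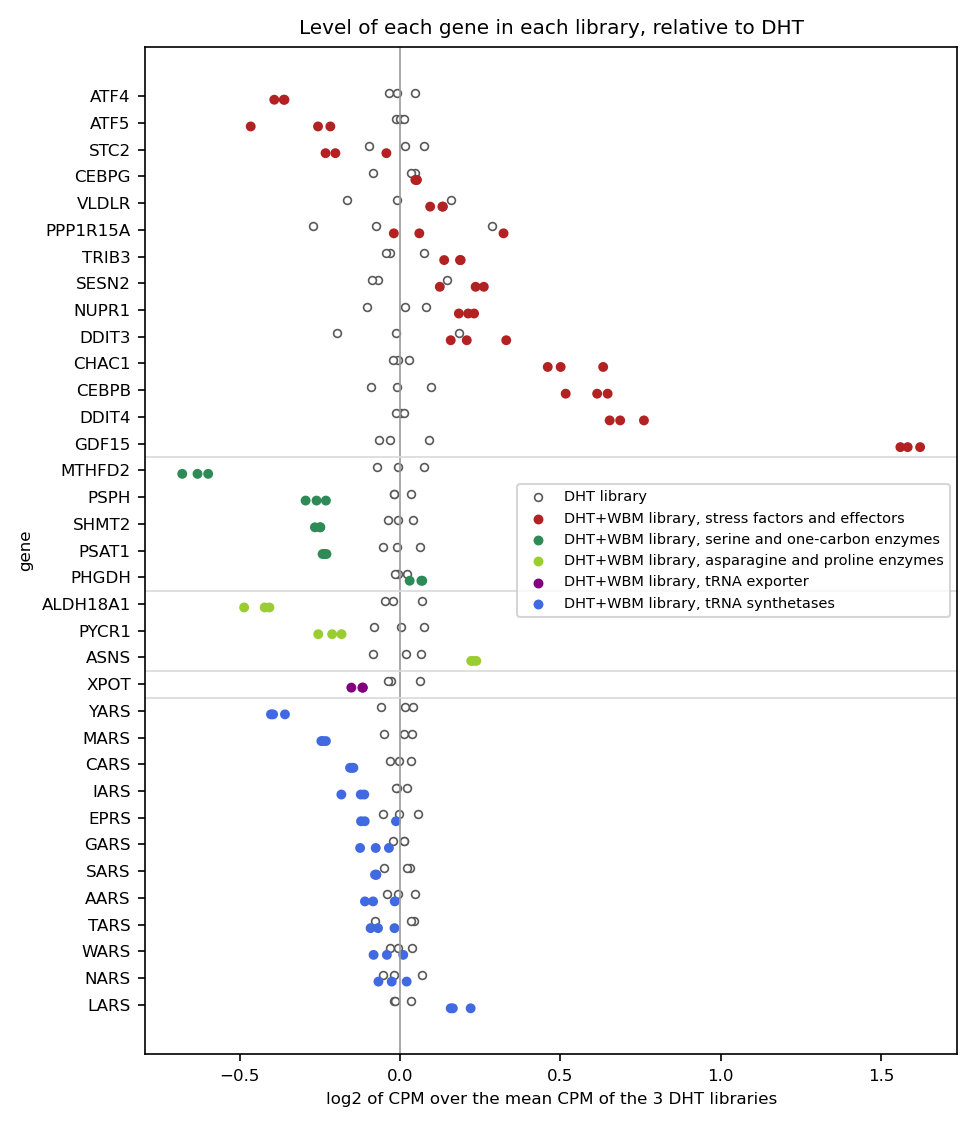
Level of each of the 35 genes in each library, as the log2 of its CPM (read counts scaled to library size) over the mean of the 3 DHT libraries; open circles are DHT libraries, filled circles DHT+WBM libraries coloured by role group, and lines part the groups. GDF15, DDIT4, CEBPB and CHAC1 lie far to the right of their DHT libraries, MTHFD2 far to the left, and most synthetases near 0.

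Levels are TMM-normalised CPM, read counts put on one library scale. The libraries held 19127357 to 21490953 counts, and the lowest count of any of the 35 genes in a library was 48. Beyond counting noise, libraries of a group varied with a common coefficient of variation of 3.39%, so small changes passed the test. Luminal prostate markers were present, with 6 of 10 lower and 1 higher in DHT+WBM (29% and 29.2% over all tested genes), and their summed level was 5683 to 5906 CPM in DHT and 3639 to 3722 CPM in DHT+WBM. Of the markers of other cell types, KRT5, COL1A2 and CDH5 had 0 counts in every library, PTPRC and CD3E had at most 1 count in any library, and the lysosomal membrane gene CD68, also used as a macrophage marker, rose from 23.0 ± 1.15 to 84.5 ± 4.61 CPM. All 3 leukocyte markers together summed to 21.6 to 23.8 CPM in DHT and 80.6 to 89.6 CPM in DHT+WBM, the 4 fibroblast markers to 13.7 to 15.3 and 12.9 to 13.9 CPM, the 3 endothelial markers to 2.37 to 3.17 and 2.16 to 2.29 CPM, and the 3 basal markers to 0.0975 to 0.287 and 0 to 0.0975 CPM. The part of these markers in the results below was not tested. In RNA from whole cultures, fewer cells of a kind and less RNA per cell cannot be told apart.

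The ATF4 binding element joins a C/EBP site to an ATF site, and its core was searched as TGATGNAA, on both strands, in the RefSeq promoter windows of build GRCh38.p14, from 250 bases before to 50 bases from the annotated start. Windows were found for 29 of the 35 genes, and none was used here for PSPH, SHMT2, PYCR1, NUPR1, LARS and YARS. Of the 29, 8 held the core (27.6%), against 3.62% of all 35116 windows. They were CHAC1, ASNS and 6 of the 10 synthetases with a window, and 0 of 3 serine and one-carbon enzymes. Because the genes were listed as known ATF4 targets, a share above that of all windows may come from that choice. It is not a result of these libraries. The first window of each listed gene was used, and every window entered the share over all windows. The 8 matches are shown because they carry this shared core, each 5′ to 3′ on the gene's strand with the matched letters in capitals. Where the match touches transcribed bases, 30 bases are shown.
CHAC1, chr15:40953232-40953299, plus strand: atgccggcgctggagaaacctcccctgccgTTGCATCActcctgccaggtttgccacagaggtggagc
ASNS, chr7:97872439-97872506, minus strand: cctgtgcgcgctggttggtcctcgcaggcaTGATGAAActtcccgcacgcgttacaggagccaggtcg
AARS, chr16:70289656-70289723, minus strand: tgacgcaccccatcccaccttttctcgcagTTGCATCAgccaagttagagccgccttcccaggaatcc
CARS, chr11:3057407-3057436, minus strand: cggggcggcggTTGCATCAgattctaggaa
IARS, chr9:92293698-92293740, minus strand: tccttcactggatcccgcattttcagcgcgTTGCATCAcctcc
MARS, chr12:57488053-57488082, plus strand: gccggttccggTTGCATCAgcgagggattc
NARS, chr18:57621804-57621833, minus strand: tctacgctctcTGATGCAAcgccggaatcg
TARS, chr5:33440956-33440985, plus strand: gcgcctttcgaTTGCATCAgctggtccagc

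In 7 of the 8 windows the matched letters were TTGCATCA or its reverse complement TGATGCAA, and ASNS had TGATGAAA. The match began 209 bases before the start in CHAC1, 187 before it in AARS1 (the current name of AARS) and 68 before it in ASNS. In the other 5 it began within 14 bases of the start. Having the core did not go with one direction. CHAC1 and ASNS rose, CARS, IARS and MARS fell, and AARS, NARS and TARS were not called, at log2 fold changes of -0.07, -0.024 and -0.059. The MYC-type E-box CACGTG was in the windows of ATF4, ALDH18A1 and IARS, 10.3% of the 29 and 7.26% of all windows. The cAMP response element TGACGTCA was in that of PPP1R15A, 3.45% against 1.85%. A match is a run of letters, not a measured binding site.

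**Figure D2:**
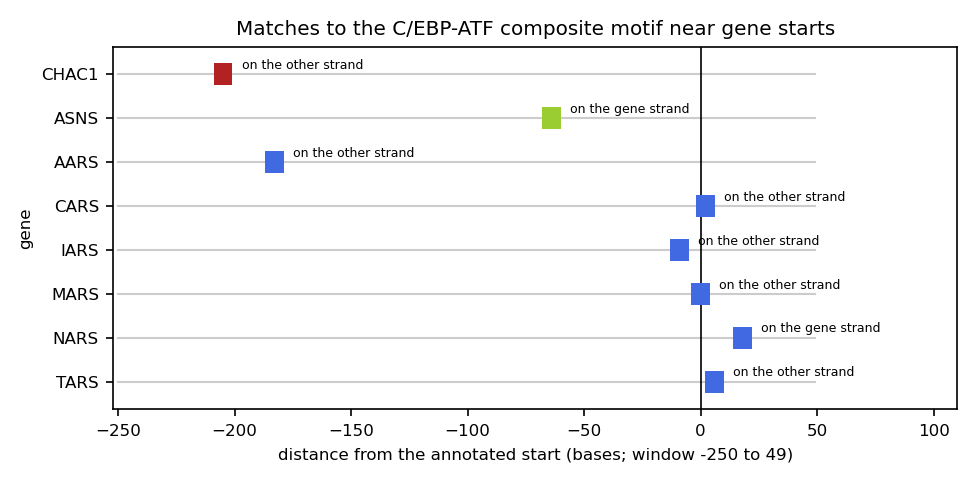
Position of each match to the C/EBP-ATF composite core in the promoter windows of 8 genes, in bases from the annotated start (vertical line at 0); grey lines span the window, boxes are the 8 matched bases, coloured by role group, with the strand written beside them. Matches in CARS, IARS, MARS, NARS and TARS crowd around the start, and those of CHAC1, ASNS and AARS lie upstream.

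GDF15 (hg19 chromosome 19, 18496968 to 18499986, plus strand), which encodes a secreted cytokine of the TGF-beta superfamily released by stressed cells, showed the largest change of the list. Its level was 143, 129 and 132 CPM in DHT replicates 1 to 3 and 396, 403 and 414 CPM in DHT+WBM replicates 1 to 3. The lowest library with extract was thus far above the highest without it. Means were 134 ± 7.72 and 404 ± 8.74 CPM (SD, n = 3). Its log2 fold change was 1.59 ± 0.04 (± SE), with an edgeR adjusted p of 1.30e-28, and ranked 124 from the top among 13466 genes. The stress group's summed level went from 867 ± 15.9 to 1189 ± 11.1 CPM, and without GDF15 the other 13 genes summed to 733 ± 9.98 and 785 ± 14.2 CPM.

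DDIT4 (chromosome 10, 74033677 to 74035797, plus strand) encodes REDD1, an inhibitor of the growth kinase mTORC1. It was at 87.0, 86.1 and 87.7 CPM in DHT and 139.9, 147 and 137 CPM in DHT+WBM, with a wide gap between the groups. The log2 fold change (± SE) came to 0.70 ± 0.04, with an edgeR adjusted p of 3.59e-17. CEBPB (chromosome 20, 48807120 to 48809227, plus strand), the gene of a bZIP factor that can pair with ATF4, went from 34.0, 29.8 and 31.6 CPM to 48.6, 49.8 and 45.4 CPM, again without overlap. The log2 fold change came to 0.59 ± 0.06, with an edgeR adjusted p of 2.25e-11. CEBPG, the gene of a related factor that also pairs with ATF4, did not pass the test at 104 ± 5.12 against 107 ± 0.182 CPM (log2 fold change 0.051, edgeR adjusted p = 0.320), and passed it as higher with library totals (0.097, edgeR adjusted p = 0.0480).

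CHAC1 (chromosome 15, 41245636 to 41248717, plus strand), whose product degrades glutathione and which is a sensitive ATF4 target, was among the rarest of the list. It was counted at 2.63, 2.57 and 2.54 CPM in DHT and 3.997, 3.65 and 3.55 CPM in DHT+WBM. All 3 libraries with extract were above all 3 without. CHAC1 had a log2 fold change of 0.53 ± 0.15, the second widest standard error of the 35 genes, with an edgeR adjusted p of 0.00280. TRIB3, a pseudokinase that restrains ATF4 and CHOP, rose less, from 37.1, 34.5 and 34.2 to 38.8, 40.2 and 40.2 CPM (log2 fold change 0.17). NUPR1, a small chromatin-bound stress protein gene, rose from 126, 116 and 131 to 144, 146 and 141 CPM (log2 fold change 0.21). For both genes the groups did not overlap.

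**Figure D3:**
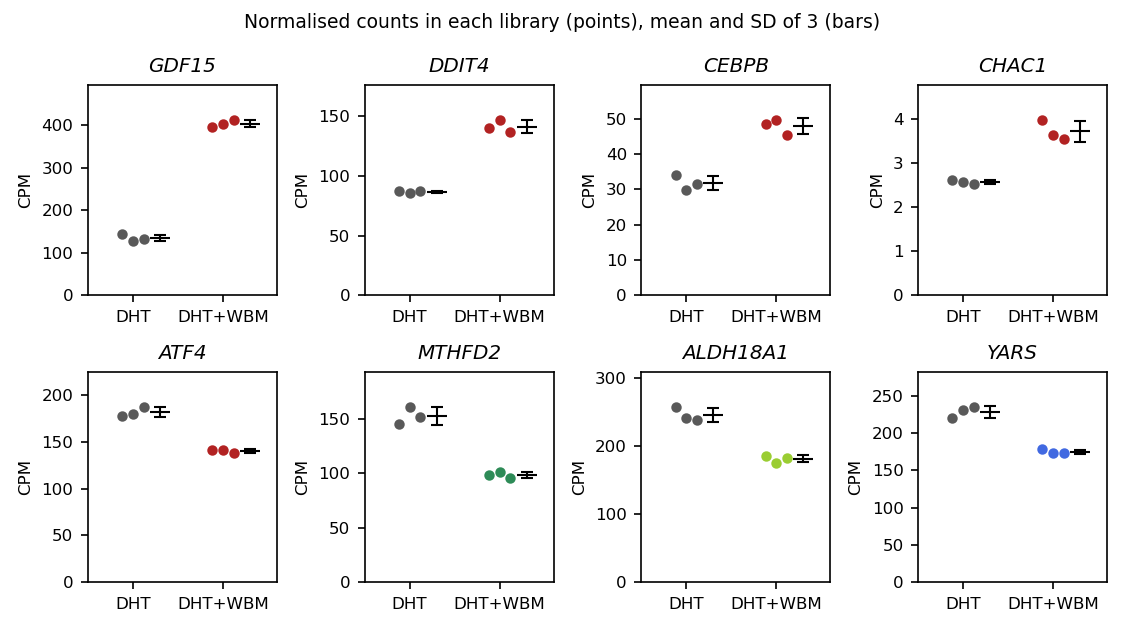
Normalised CPM of 8 genes in each of the 3 DHT and 3 DHT+WBM libraries (points), with the mean and SD (bars); each panel's axis starts at 0. The upper row holds stress effectors that rose, and the lower row ATF4, MTHFD2, ALDH18A1 and YARS, which fell. Groups do not overlap in any panel, nor for 62.2% of all tested genes.

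SESN2 and DDIT3 passed the test with overlapping libraries. SESN2, a leucine sensor that restrains mTORC1, was at 27.1, 23.3 and 23.0 CPM in DHT and 28.8, 29.3 and 26.7 CPM in DHT+WBM (log2 fold change 0.21, edgeR adjusted p = 0.00829). Without DHT replicate 3 that call was lost (0.16, edgeR adjusted p = 0.0519). DDIT3 (chromosome 12, 57910371 to 57914300, minus strand), which encodes the proapoptotic factor CHOP, was at 12.8, 11.1 and 9.80 CPM and 13.0, 14.1 and 12.5 CPM, where DHT replicate 1 lay among the libraries with extract. Its log2 fold change of 0.23 ± 0.09 (edgeR adjusted p = 0.0270) ceased to be called when any 1 of 4 libraries was left out. Without DHT replicate 2 or 3 the edgeR adjusted p was 0.0572 and 0.210, and without DHT+WBM replicate 1 or 2 it was 0.0552 and 0.133. DESeq2 gave an adjusted p of 0.0948. The end of DDIT3 also overlaps 964 bases of MARS on the opposite strand, at 221 CPM in DHT, and the strand setting of the counting is not given in the sources used here.

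The remaining effectors had smaller differences. PPP1R15A, which encodes GADD34, the stress-induced subunit that directs a phosphatase to eIF2, was at 2.77, 2.42 and 3.56 CPM in DHT and 2.88, 3.65 and 3.04 CPM in DHT+WBM, intermixed (log2 fold change 0.12 ± 0.16, edgeR adjusted p = 0.537). VLDLR, a lipoprotein receptor gene, was at 31.6, 28.1 and 25.2 and 31.05, 31.02 and 30.2 CPM and missed the test (log2 fold change 0.12, edgeR adjusted p = 0.119). It passed without DHT replicate 1 (0.20, edgeR adjusted p = 0.0112) and with library totals (0.17, edgeR adjusted p = 0.0312), while without DHT replicate 3 the value was 0.040 (edgeR adjusted p = 0.633). STC2, a secreted glycoprotein gene, was called lower at 55.3, 53.0 and 49.01 against 45.6, 50.9 and 44.6 CPM (log2 fold change -0.16, edgeR adjusted p = 0.0136), with overlapping libraries. STC2 missed the threshold once DHT replicate 1 was dropped (edgeR adjusted p = 0.0909). Dropping the first or the third library with extract (DHT+WBM replicate 1 or 3) had the same effect, at edgeR adjusted p of 0.0591 and 0.0812. It was also lost with upper-quartile factors and with library totals, at edgeR adjusted p of 0.0509 and 0.0832.

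The transcription factors ATF4 and ATF5 were lower. ATF4 (chromosome 22, 39916569 to 39918691, plus strand) was at 177, 179.8 and 187 CPM in DHT and 141, 141 and 138 CPM in DHT+WBM. The libraries with extract lay close together and below every DHT library (log2 fold change -0.37 ± 0.04, edgeR adjusted p = 2.54e-10). ATF5 (chromosome 19, 50431959 to 50437193, plus strand), a related bZIP factor controlled by translation in the same way, was at 47.0, 47.4 and 47.7 CPM and 39.7, 34.3 and 40.8 CPM (log2 fold change -0.31 ± 0.06, edgeR adjusted p = 1.65e-05). DHT+WBM replicate 2 was the lowest, and no library overlapped the other group. ATF5 overlaps 1030 bases of the nucleoporin gene NUP62 on the opposite strand, which also fell, from 97.9 to 75.5 CPM.

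The serine pathway makes serine from a glycolytic intermediate through PHGDH, PSAT1 and PSPH, and SHMT2 and MTHFD2 pass its carbon to folate in mitochondria. PHGDH, the first enzyme, was at 277, 275 and 282 CPM in DHT and 284, 292 and 291 CPM in DHT+WBM. It lay higher in every library with extract but by little (log2 fold change 0.055 ± 0.037, edgeR adjusted p = 0.206), which passed the test with upper-quartile factors (0.087, edgeR adjusted p = 0.0394) and with library totals (0.10, edgeR adjusted p = 0.0161).

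The other 4 enzymes fell, with no overlap between groups for any of them. Over all tested genes the groups did not overlap, in either direction, for 62.2%. PSAT1, the transaminase, went from 239, 251 and 232 to 204, 204 and 205 CPM (log2 fold change -0.24 ± 0.04, edgeR adjusted p = 2.34e-06). PSPH, the phosphatase of the last step, went from 62.5, 62.5 and 64.8 to 52.8, 51.6 and 53.9 CPM (log2 fold change -0.26 ± 0.05, edgeR adjusted p = 1.29e-05). The span given for PSPH covers parts of 6 other genes of the table, among them CCT6A on the opposite strand at 682 CPM, so its level is uncertain. SHMT2, which splits serine into glycine and a one-carbon unit, went from 264, 258 and 272 to 223, 220.3 and 223 CPM (log2 fold change -0.25 ± 0.04, edgeR adjusted p = 3.66e-07). These 3 falls were close to each other in size.

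MTHFD2 (chromosome 2, 74425690 to 74442424, plus strand), a mitochondrial folate enzyme that proliferating cells and tumours express highly, fell most. Its levels were 145, 161 and 152 CPM in DHT and 98.6, 101 and 95.4 CPM in DHT+WBM. Means were 153 ± 7.94 and 98.3 ± 2.76 CPM (SD, n = 3). On the log2 scale the fold change was -0.64 ± 0.04, with an edgeR adjusted p of 1.27e-15, and ranked 793 from the lowest of 13466. The summed level of the 5 enzymes went from 1000.1 ± 10.9 to 867 ± 4.11 CPM.

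Asparagine and proline enzymes split. ASNS (chromosome 7, 97481429 to 97501854, minus strand), asparagine synthetase and a classical ATF4 target, was at 139.8, 155 and 150.1 CPM in DHT and 175, 173 and 173 CPM in DHT+WBM, above every DHT library. The log2 fold change came to 0.23 ± 0.04, with an edgeR adjusted p of 1.04e-05. ALDH18A1 (chromosome 10, 97365686 to 97416567, minus strand), which encodes the first enzyme of proline synthesis from glutamate, went the other way, from 258, 242 and 238 to 185, 176 and 184 CPM (log2 fold change -0.44 ± 0.04, edgeR adjusted p = 5.05e-12). PYCR1, the mitochondrial reductase that completes proline, fell from 214, 202 and 226 to 189, 179 and 185 CPM (log2 fold change -0.22 ± 0.04, edgeR adjusted p = 2.39e-05). Of the 8 amino acid enzymes, 6 were called lower and ASNS alone higher, beside 29% lower and 29.2% higher over all tested genes. With upper-quartile factors or library totals PHGDH was called higher as well.

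The tRNA synthetases attach each amino acid to its tRNA, and XPOT carries tRNAs out of the nucleus. Together the 12 synthetases summed to 4588 ± 65.3 CPM in DHT and 4347 ± 92.3 CPM in DHT+WBM. Per kb of gene length they ranged in DHT from 25.4 CPM per kb for CARS to 182 for TARS. XPOT was at 398, 424 and 396 CPM in DHT and 374, 374 and 365 CPM in DHT+WBM (log2 fold change -0.13 ± 0.04, edgeR adjusted p = 0.00429), without overlap. This call was lost with library totals (-0.082, edgeR adjusted p = 0.0583).

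YARS (chromosome 1, 33240840 to 33283633, minus strand), the tyrosine enzyme, fell most among the synthetases. It was at 219.8, 231 and 235 CPM in DHT and 178, 174 and 173 CPM in DHT+WBM, well apart. The log2 fold change (± SE) came to -0.39 ± 0.04, with an edgeR adjusted p of 7.84e-11. Its span overlaps 591 bases of S100PBP on the opposite strand, which was at 47.3 CPM in DHT and 43.4 CPM in DHT+WBM. MARS (chromosome 12, 57881077 to 57911334, plus strand), the methionine enzyme, fell from 223, 214 and 227 to 187, 187 and 189 CPM (log2 fold change -0.24 ± 0.04, edgeR adjusted p = 1.64e-06). CARS, the cysteine enzyme, went from 78.2, 76.6 and 80.2 to 70.8, 70.6 and 70.3 CPM (log2 fold change -0.15 ± 0.04, edgeR adjusted p = 0.00386). IARS, the isoleucine enzyme, went from 548, 559 and 546 to 506, 485 and 509.9 CPM (log2 fold change -0.14 ± 0.04, edgeR adjusted p = 0.00168). In all 4 the libraries with extract lay below every DHT library, where 62.2% of all tested genes had no overlap in either direction.

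LARS (chromosome 5, 145492589 to 145562294, minus strand), the leucine enzyme, which also senses leucine for mTORC1, was the exception. Its levels were 311, 323 and 312 CPM in DHT and 352, 353 and 367 CPM in DHT+WBM, all higher than in DHT. The log2 fold change (± SE) came to 0.18 ± 0.04, with an edgeR adjusted p of 9.11e-05, and the call held under each alternative run for it.

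The other 7 synthetases did not pass the test. AARS, EPRS, GARS, SARS and TARS, the enzymes for alanine, for glutamate and proline, for glycine, for serine and for threonine, had log2 fold changes of -0.07, -0.081, -0.078, -0.076 and -0.059. The asparagine enzyme NARS and the tryptophan enzyme WARS had -0.024 and -0.037. EPRS, the most abundant by CPM, was at 747, 778 and 721 CPM in DHT and 694, 688 and 742 CPM in DHT+WBM, where DHT+WBM replicate 3 reached into the range of DHT. SARS was at 217, 229.9 and 228 and 214, 213 and 214 CPM, so the groups stood apart without passing the test (edgeR adjusted p = 0.0880). With 1 library left out, 5 of these were called lower. Without DHT replicate 1 these were GARS, SARS and TARS, at edgeR adjusted p of 0.0439, 0.0264 and 0.0246. Without DHT replicate 2 it was AARS (edgeR adjusted p = 0.0473), and without DHT replicate 3 EPRS (edgeR adjusted p = 0.0236). Without DHT+WBM replicate 3 they were AARS, EPRS and GARS, at edgeR adjusted p of 0.0470, 0.0183 and 0.0404. EPRS and GARS were also called lower with no low-count filter, at edgeR adjusted p of 0.0351 and 0.0491. For NARS and WARS the sign depended on scaling.

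Role groups also differed in level per length. Stress factors and effectors had a median of 13.7 CPM per kb in DHT, serine and one-carbon enzymes 68.0 and synthetases 73.9, beside 8.07 over all tested genes. Within the stress group the level ran from 1.22 CPM per kb for PPP1R15A to 137 for NUPR1 in DHT, and GDF15 moved from 112 ± 6.44 to 338 ± 7.30 CPM per kb, above every other gene of the list in DHT+WBM.

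**Figure D4:**
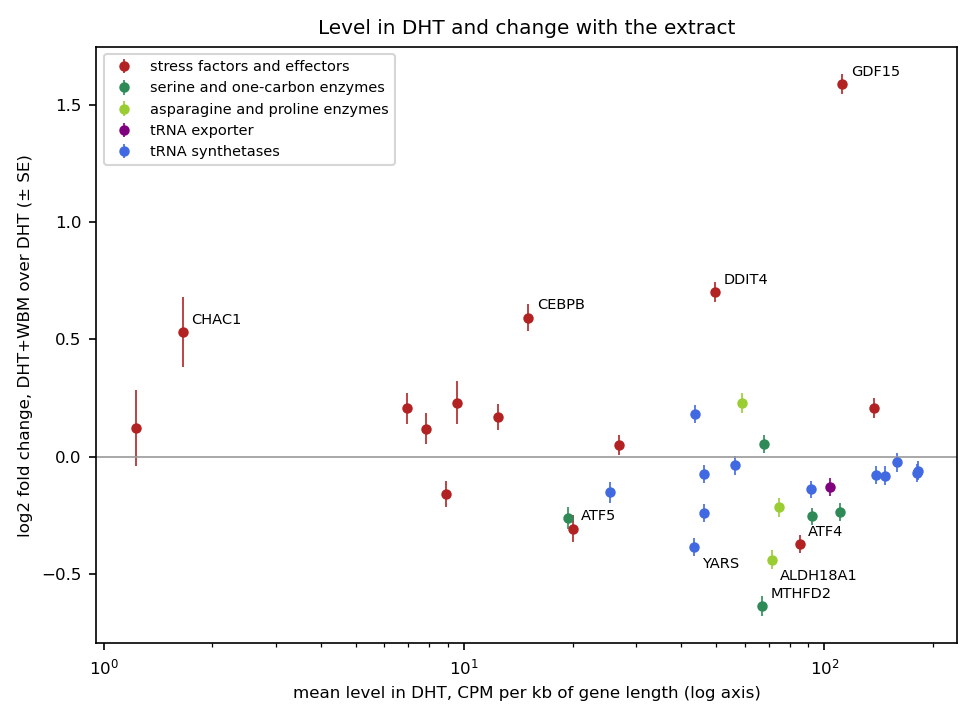
Log2 fold change of each gene (DHT+WBM over DHT, ± SE) against its mean level in DHT in CPM per kb of gene length, on a log axis, coloured by role group. Most synthetases and enzymes sit at high levels with changes near or below 0, while ASNS and LARS were called higher. Stress genes spread from 1.22 to 137 CPM per kb, with GDF15 highest in change.

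Upstream of ATF4, 15 eIF2 kinases, eIF2 and eIF2B subunits and their regulators were examined. None was called higher and 8 were called lower, beside 29.2% higher and 29% lower over all tested genes. With library totals 6 were lower, beside 23.8% over all tested genes. The median of the 15 log2 fold changes was -0.14. EIF2AK3, the gene of the endoplasmic reticulum kinase PERK, went from 82.4, 86.1 and 81.7 to 59.6, 66.9 and 64.9 CPM (log2 fold change -0.39, edgeR adjusted p = 7.19e-09). EIF2S1, which encodes the eIF2 subunit that these kinases phosphorylate, went from 372, 394 and 390.1 to 291, 292 and 300.04 CPM (log2 fold change -0.39, edgeR adjusted p = 3.17e-11). Both sets were well apart.

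Of a list of 22 further genes known as ATF4 targets, 21 were tested, and 5 were higher, 6 lower and 10 not called (median log2 fold change 0.0020). This share called is near the 58.2% over all tested genes. The autophagy receptor gene SQSTM1 and the factor gene ATF3 had the largest rises, from 633, 622 and 678 to 1472, 1372 and 1448 CPM and from 31.4, 33.5 and 29.0 to 57.4, 59.5 and 56.3 CPM, log2 fold changes of 1.15 and 0.88. The amino acid transporter genes SLC1A5 and SLC7A5 had the largest falls, from 121, 115 and 118 to 64.5, 65.1 and 66.4 CPM and from 144, 138 and 138 to 99.2, 89.4 and 87.1 CPM, log2 fold changes of -0.85 and -0.61. FGF21, the other stress hormone of the pathway, was not tested, since no library held more than 1 count of it.

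Of the other enzymes of serine, glycine, folate and proline metabolism, 11 of 24 tested were lower and 3 higher (median log2 fold change -0.14), with the same counts under library totals. The share called was near the 58.2% over all tested genes, of which 29% were lower and 29.2% higher. AMT, SDS and PRODH were too rare to test. TYMS, the thymidylate synthase gene, which uses a folate one-carbon unit for DNA synthesis, fell from 146, 161 and 149 to 73.5, 71.9 and 73.9 CPM (log2 fold change -1.06). GLUD1, the glutamate dehydrogenase gene, fell from 172, 175 and 188 to 102, 97.5 and 102 CPM (log2 fold change -0.82). The largest rises were of ALDH1L2 and GLDC, a mitochondrial folate enzyme gene and a glycine cleavage gene, with log2 fold changes of 0.91 and 0.39 from mean levels of 0.620 ± 0.185 and 2.92 ± 0.162 CPM in DHT.

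Synthetases outside the 12 covered a similar range. Of 11 other cytosolic synthetase and multisynthetase complex genes 4 were lower, 2 higher and 5 not called (median log2 fold change -0.0022). QARS and FARSB, for glutamine and a phenylalanine enzyme subunit, had -0.33 and -0.26, and the scaffold genes AIMP1 and AIMP2 0.14 and 0.10. Among 17 mitochondrial synthetases 9 were lower, 2 higher and 6 not called, with a median of -0.11. Over all tested genes 29% were lower and 29.2% higher. With library totals 6 of the 17 were lower and 2 higher, beside 23.8% lower and 34.7% higher over all tested genes. The share of both synthetase lists that was called in either direction is near the 58.2% over all tested genes. SARS2 and RARS2 were lowest at -0.35 and -0.33, and PARS2 was called higher at 0.21. Every cytosolic and mitochondrial synthetase gene tested lay between log2 fold changes of -0.39 and 0.21.

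**Figure D5:**
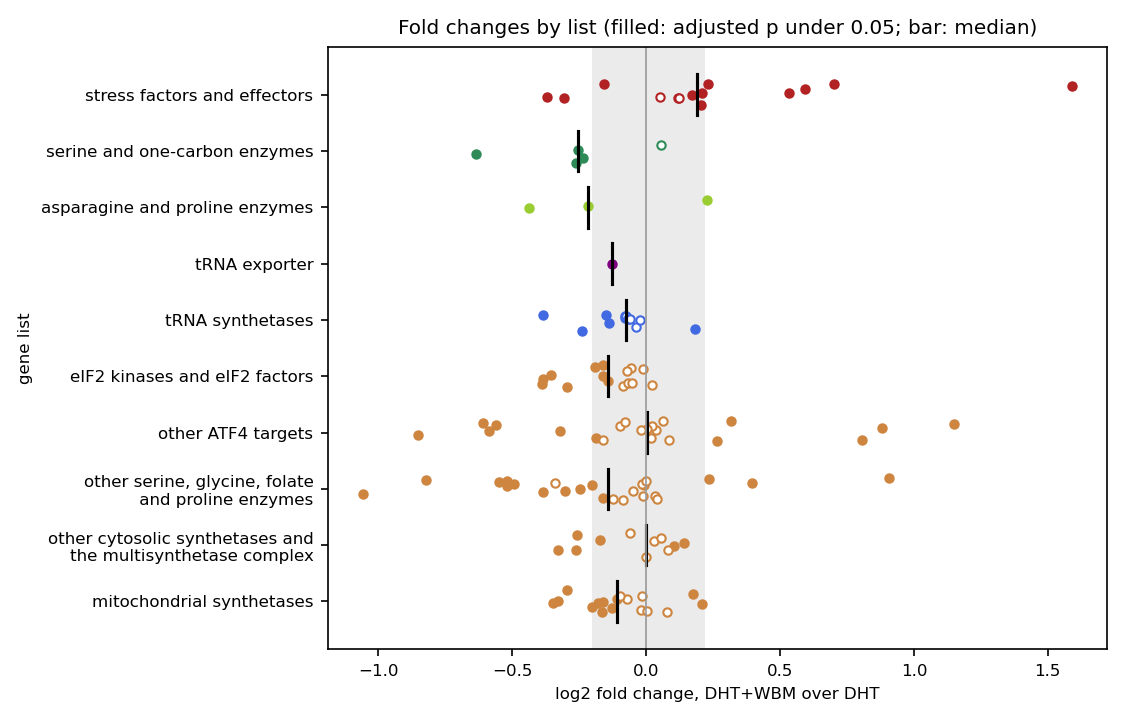
Log2 fold change of each gene by list, the 5 role groups of the 35 genes first and 5 related lists after them; filled points passed the test, open points did not, black bars are medians, and the grey band holds the middle of all tested genes from the first quartile (-0.20) to the third (0.21). Stress genes lie mostly to the right of 0 with GDF15 at 1.59, serine enzymes mostly to the left, and synthetases mostly inside the band. The stress genes TRIB3, SESN2, VLDLR, PPP1R15A, CEBPG, NUPR1 and STC2 lie inside the band too, as does their group's median of 0.19.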

How the data were processed

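The deposited table holds raw counts, whole numbers of reads for each gene without normalization, next to gene coordinates and length. The submitters' processing notes name hg19 as build and list STAR (2.6.0), edgeR (3.28.1), HTSeq (0.6.0) and bcl2fastq (2.18.0.12) without saying what each did. Which annotation, strand setting or filter the authors used for these counts is not stated in the sources. Columns were matched to libraries by the code in the sample titles.

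Counts were analysed with edgeR 4.0.16 in R 4.3.3 (filterByExpr, minimum count 10, minimum total 15, TMM factors 0.979 to 1.02, quasi-likelihood F-test, two-sided, Benjamini-Hochberg over 13466 genes, no covariate). SE is the log2 fold change divided by the root of F. Called means an adjusted p under 0.05. The fit was tested on simulated data in which few genes changed. In these libraries most tested genes were called, so that test does not bear on the scaling used here.

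The 35 genes, their role groups and the related lists were chosen with earlier results of these data known. Full statistics are given for ATF4 and for up to 4 called genes each way per role group with the largest change; from related lists, up to 2 genes each way are named, and 1 that qualifies is not reported here. FGF21, AMT, SDS, PRODH, and the extra values of other genes of the 35, were given after their values were seen. NARS2 is in 2 lists. Of the 35 genes, 11 have pseudogenes named after them in RefSeq, and reads shared with those are uncertain. MTHFD2 has the most with 7, ASNS has 5, and ATF4 and PSAT1 have 4 each. Promoter sequences are RefSeq's, build GRCh38.p14, matched by symbol or by the current symbol ending in 1, and no coordinate was converted.

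Alternatives were RLE and upper-quartile factors, library totals, no filter, a 1 CPM filter, DESeq2 1.42.0, limma-voom (limma 3.58.1), a replicate block, a threshold of 0.01, a 1.5-fold minimum and each library left out. Leaving out genes whose span overlaps another gene at 1 CPM or more, and library totals for the related lists, were chosen after seeing the data.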

Additional observations from a re-analysis of the deposited data

How the results depend on the processing

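Of the 24 called genes, 20 kept call and direction under all 15 alternatives run per gene, and DDIT3, SESN2, STC2 and XPOT did not. With a replicate block the list had 10 higher and 14 lower, and 8109 genes were called in all against 7837; no gene of the 35 changed its call. Deviations from the group means correlated weakly between same-numbered libraries (r = 0.050, 0.037 and 0.019). Between libraries of other numbers r ran from -0.086 to 0.047, and not every library correlated best with its own number. With 3 libraries per group, whose deviations sum to 0, these values cannot decide whether the libraries were paired. A 1.5-fold minimum left 3 higher and 1 lower. Without the 8 genes whose spans overlap an expressed gene, 9 of 27 were higher and 9 lower, beside 29.2% and 29% over all tested genes. Those left out were ATF5, PSPH, SHMT2, MARS and YARS, called lower, DDIT3, called higher, and VLDLR and GARS, not called. Their overlaps ran from 33 bases, of SHMT2 with NDUFA4L2 (1.40 CPM in DHT), to 16449 bases, of PSPH with SUMF2 (213 CPM in DHT). Whether shared reads changed any call was not tested. NARS, not called, changed sign with upper-quartile factors (0.0083), library totals (0.023) and without DHT replicate 2, where leaving out libraries gave -0.052 to 0.010, and WARS with library totals (0.0092); the scale factor moved the median of all genes by 0.032 and 0.047. Leaving out each library gave 8 to 11 higher and 13 to 16 lower. Depth limits PPP1R15A and CHAC1 most, with the widest errors of the 35.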
